A study of Mus musculus with 2 samples.

Results

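The cells described here carry high levels of Matn1, which encodes the cartilage matrix protein matrilin-1, and were left without a cluster label in the osteogenic and mesenchymal cells of the mouse coronal suture. They are the barcodes outside the authors' label table that passed limits on quality and held at least 10 UMIs of Matn1, where a UMI marks 1 captured RNA molecule. A cell needed 1000 UMIs and 1000 genes or more, and its mitochondrial UMIs could not exceed 7.5%, nor those of the Hbb or of the Hba globins 3%. There were 1376 such cells of 16977 cells in all, of which the E15.5 library gave 1195 (of 8210) and the E17.5 library 181 (of 8767). The cells were chosen on a measured value, so Matn1 itself is no result, and all other levels in the same cells are given as a description with no test.

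Both stages came from wild-type C57/BL6 embryos, and each stage is 1 deposited count matrix, called a library here. At E15.5, 10 coronal sutures were pooled, digested with Collagenase II and Dispase for 45 min, and passed through a kit that removes dead cells. At E17.5, strips of suture from 2 litters were prepared in 3 batches of 10, 3 and 3 sutures, digested with Collagenase IV for 30 min and sorted by FACS against debris, doublets and dead cells. The dissection at E17.5 avoided the most apical and basal parts of the suture, so stage, dissection, enzyme and sorting cannot be told apart, nor can the gene annotation, which differs between the matrices. With 1 library for each stage, no difference between cells or stages could be tested against replicates. All intervals are exact 95% intervals that cover counting error only.

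Chondrocytes build cartilage by secreting fibrils of type II, IX and XI collagen, filled with the proteoglycan aggrecan (Acan) that is held on hyaluronan by link protein (Hapln1). The transcription factor Sox9 starts this programme, and Sox5 and Sox6 act with it. In the embryonic head, cartilage forms the chondrocranium below and around the roof bones, whereas the roof bones themselves form directly from mesenchyme. Chondrocytes that mature towards bone switch on Ihh and then Col10a1, the mark of hypertrophy.

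The name of these cells held against their markers. Sox9, which was not used to choose the cells, stood at 492 CPM, counts per 1000000 UMIs, at E15.5 and 384 CPM at E17.5, against 28.5 and 11.4 CPM in labelled cells. Acan stood at 1730 and 1134 CPM, against 38.5 and 42.1 CPM in labelled cells. When each cell was thinned to 3000 UMIs, Acan was detected in 95.9% of Matn1-high cells at E15.5 and in 84.5% at E17.5. Without thinning these shares were 99.4% and 95%, and 17 Matn1-high cells at E15.5 were too shallow to be thinned. The thinned share was 8.29% and 11.7% in labelled cells and 5.73% and 3.43% in myeloid cells, which should lack the gene and give the background of free RNA. Sox9 was detected after thinning in 66.6% and 57.5% of Matn1-high cells, in 7.81% and 3.43% of labelled cells, and in 3.13% and 0.762% of myeloid cells, and without thinning in 91.1% and 86.2% of Matn1-high cells.

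The Matn1-high cells were deeper than labelled cells at E15.5 and somewhat shallower at E17.5. The limit is an absolute number of UMIs, so deep cells pass it more easily. From 10 to 19 Matn1 UMIs up to 80 or more, the median depth rose from 7531 to 16520 UMIs at E15.5. At E17.5 it rose from 9855 to 15305 UMIs. The median of all Matn1-high cells was 11652 UMIs and 3072 genes at E15.5 and 11347 UMIs and 2979 genes at E17.5. It was 8510 and 12301.5 UMIs in the 5335 and 6830 labelled cells. The libraries shared 190 barcode sequences, and none of these was a Matn1-high cell in both libraries. High scores for doublets, at or above the 94th percentile of Scrublet scores, were held by 148 Matn1-high cells at E15.5 (12.4%, against 6.1% of all cells) and by 13 at E17.5 (7.18%, against 6.36%). Within the E15.5 cells they gathered in 3 small clusters, which are described with the other clusters, and the levels that these clusters carry most are given without them as well.

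At E15.5, 14.6% of cells were Matn1-high (13.8 to 15.3%). At E17.5 the share was 2.06% (1.78 to 2.38%). Of the unlabelled cells alone, they were 41.6% at E15.5 and 9.34% at E17.5. The barcodes at E17.5 carry 3 suffixes, and which suffix is which batch is not recorded. The share was 1.24% in suffix 1 (19 of 1530 cells), 2.36% in suffix 2 (85 of 3602) and 2.12% in suffix 3 (77 of 3635). The share at E17.5 was 0.142 times that at E15.5 (0.121 to 0.166), and it was below the share at E15.5 in every suffix.

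**Figure D1:**
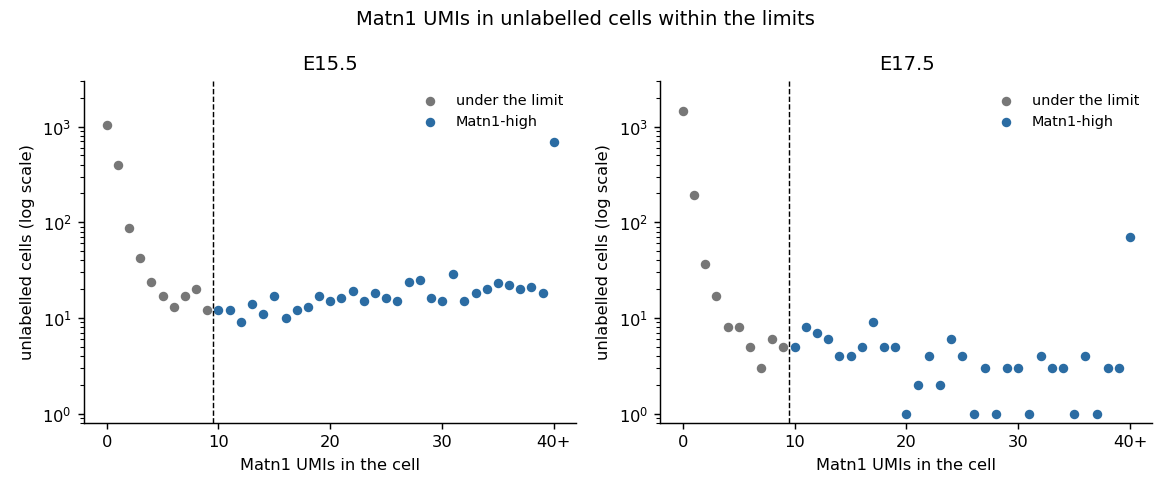
Number of unlabelled cells within the limits (log scale) by their Matn1 UMIs, at E15.5 (left) and E17.5 (right). Points right of the dashed line are the Matn1-high cells, and the last point of each panel joins all cells with at least 40 Matn1 UMIs. The point at 0 Matn1 UMIs is the highest of each panel (1048 cells left, 1475 right), and the last point, with at least 40 UMIs, holds the largest number of Matn1-high cells.

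The limit of 10 Matn1 UMIs passed through the lower tail of the Matn1-high cells, and 58 of the 181 at E17.5 lay close to it. At E15.5, 79 unlabelled cells had 5 to 9 Matn1 UMIs and 127 had 10 to 19, and the E17.5 library had 27 and 58. Just outside the limit, Col2a1 was at 4554 CPM at E15.5 and 5121 CPM at E17.5, and just inside it was at 7506 and 8470 CPM. Acan was at 551 and 434 CPM outside and at 1195 and 918 CPM inside. The cells just outside therefore carried cartilage RNA too, and their level of Col2a1 was well above the 148 and 48.5 CPM of unlabelled cells without Matn1 UMIs.

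The matrix collagens of cartilage stood far above the labelled cells. A gene is called higher or lower here when it differs at least 2-fold in the same direction in both libraries, with at least 50 UMIs seen, or 50 to be looked for at the labelled level, in the Matn1-high cells of each library. All 7 genes of the collagen list were higher, which describes cells chosen by another cartilage gene, where 5.08% of the 5396 genes tested were higher (274 genes) and 7.02% lower (379 genes). Col2a1 (ENSMUSG00000022483), the chain of type II collagen, lies on chromosome 15 from 97975602 to 98004695 in the mm10 build. It was at 7965 CPM at E15.5 (7919 to 8011) and at 10689 CPM at E17.5 (10552 to 10826), against 177 and 36.5 CPM in labelled cells, ratios of 44.9 and 293. By suffix at E17.5 it was at 11784, 10245 and 10873 CPM, which was 396, 281 and 278 times the labelled cells of the same suffix. Of the 274 genes called higher, 239 were past 2-fold within every suffix, and of the 379 called lower, 290.

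The 3 chains of type IX collagen, which coats the type II fibril, shared this pattern. Col9a1 was at 2117 and 3120 CPM (ratios 42.2 and 143), Col9a2 at 2573 and 4040 CPM (37.1 and 113), and Col9a3 at 5166 and 6996 CPM (47.1 and 175). In each of these genes the labelled cells were lower at E17.5 than at E15.5 and the Matn1-high cells were not, so the ratios were larger at E17.5. Col27a1, a further fibrillar collagen of cartilage, was at 687 and 582 CPM, with ratios of 12.1 and 11.4.

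Type XI collagen, which lies within the type II fibril, had smaller ratios and was also present in labelled cells of bone. Col11a1 was at 7192 and 6478 CPM, 18 and 21.1 times the labelled level. Col11a2 was at 1484 CPM at E15.5 and 1807 CPM at E17.5. The OG4 cluster, labelled cells with the genes of mature osteoblasts, held 1656 CPM of Col11a2 at E15.5 and 358 CPM at E17.5. Col11a2 was thus no higher in Matn1-high cells than in OG4 at E15.5, while the other 6 collagens were above every labelled cluster in both libraries.

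Proteoglycans and other matrix proteins of cartilage were higher in 15 of 17 genes tested, of 21 in the list. Acan (ENSMUSG00000030607, chromosome 7, 79053483 to 79115099) was 44.9 times the labelled level at E15.5 (42.9 to 47.1) and 26.9 times at E17.5 (25.6 to 28.3). Hapln1, the link protein (ENSMUSG00000021613, chromosome 13, 89539796 to 89611652), was at 2336 and 1954 CPM, with ratios of 60.6 and 84.6. The labelled cluster with most Hapln1 was MG1, a cluster of the periosteal dura mater, with 141 and 64.1 CPM.

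Among proteins that link or organise the matrix, Matn3 was at 323 and 223 CPM (ratios 54.2 and 248) and Comp, cartilage oligomeric matrix protein, at 197 and 691 CPM (49 and 180). Matn4, the matrilin that marks dura cells as well, was at 915 and 595 CPM with smaller ratios of 21.9 and 9.03, and MG2 held 313 CPM of it at E15.5 and MG1 423 CPM at E17.5. Cnmd, chondromodulin, a protein of cartilage that keeps vessels out, was at 2326 and 3208 CPM (54 and 172). Snorc, a membrane proteoglycan of chondrocytes, was at 2378 and 3007 CPM (40.8 and 498). Scrg1 was at 245 and 237 CPM (60.7 and 236), and no labelled cluster held more than 7.64 CPM of it at E15.5 or 2.94 CPM at E17.5.

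The remaining called genes of this list were Mia, Ucma, Cytl1, Chad, Chadl, Prelp and Fbln7. Ucma, a secreted protein of the resting zone of growth cartilage, was at 88.6 and 169 CPM, with ratios of 44 and 52. Both genes not called are small proteoglycans with other sources in the suture. Epyc had ratios of 4.92 and 1.41, and Fmod of 1.86 and 2.7, and MG1 held more of Fmod than the Matn1-high cells did (431 CPM beside 101 CPM in the E15.5 library, and 796 CPM beside 481 CPM in the other).

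**Figure D2:**
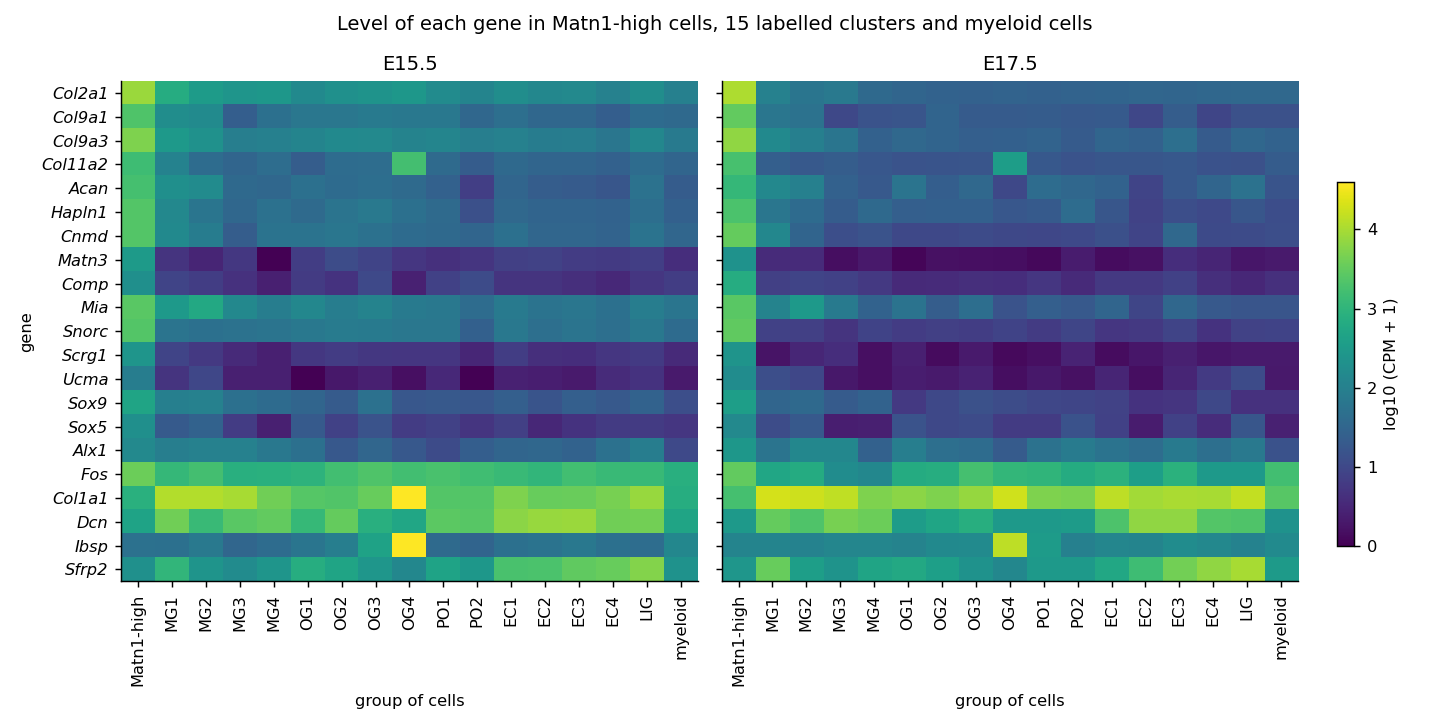
Level of 21 genes (log10 of CPM plus 1, colour) in Matn1-high cells, in each of the 15 labelled clusters and in myeloid cells, at E15.5 (left) and E17.5 (right). The first column of each panel is brightest in the cartilage genes at the top and dark in Ibsp and Dcn at the bottom, and OG4 is bright in Col11a2, Col1a1 and Ibsp.

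Enzymes and transporters that make the sulphated sugar chains of aggrecan were higher in 6 of 14 genes tested, of 18 in the list, and none was lower. Papss2, which makes the sulphate donor, was at 257 and 154 CPM with ratios of 9.99 and 5.65. Slc26a2, the sulphate transporter, had ratios of 11.9 and 5.58, and Slc35d1, a transporter of nucleotide sugars, of 14.8 and 7.89. Csgalnact1, which starts chondroitin chains, had ratios of 21 and 19, Xylt1 of 13.7 and 6.41, and Chst11, a chondroitin sulphotransferase, of 16.4 and 10.7. The related enzymes Papss1 (1.04 and 0.768), Xylt2 (0.628 and 0.79) and Csgalnact2 (0.727 and 0.656) were near or below the labelled level, so within each of these pairs only 1 member stood out.

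Collagen processing and secretion differed less. Of 18 genes tested, 3 were higher and none lower: Plod2 (ratios 5.6 and 3.08) and Plod3 (2.26 and 2.18), which hydroxylate lysines of collagen, and Creb3l2 (3.32 and 3.42), a factor that drives secretion in chondrocytes. Serpinh1, the collagen chaperone, had ratios of 1.21 and 1.43, so it was not called.

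Of 12 chondrocyte transcription factors, 7 had enough counts, 3 of which were higher and 1 lower. Sox9 (ENSMUSG00000000567, chromosome 11, 112782224 to 112787760) had ratios of 17.3 (16.3 to 18.3) and 33.7 (30.7 to 36.9), and the highest labelled cluster, MG2, held 104 and 37 CPM of it. By suffix at E17.5 it was at 600, 353 and 360 CPM. Sox5 was at 198 and 145 CPM (29.3 and 15.7). Foxa3, a forkhead factor of growth cartilage, was at 30.2 and 30.5 CPM (29.4 and 257). Its relative Foxa2 had 17 and 6 UMIs and fell under the limit on counts.

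Sox6 was not called. It was at 111 CPM at E15.5, 9.59 times the labelled level, and at 65.6 CPM at E17.5, 1.57 times. At E17.5 the labelled cluster OG1, osteoprogenitor cells, held 85.8 CPM of Sox6, more than the Matn1-high cells. Mef2c, which drives hypertrophy, was lower at 33.2 and 36.9 CPM, with ratios of 0.327 and 0.183. Runx2, the factor of bone formation, had ratios of 0.622 and 0.345.

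SOX factors bind DNA at short cores that include the 6 letters ACAAAG and ACAATG, and the promoters of genes that were higher together were searched for these on both strands (CTTTGT and CATTGT on the other strand). The windows were the 250 bases before the start of a gene, taken from RefSeq on GRCm38.p6, the same genome as mm10. At least 1 core was found in 25.5% of all 27025 promoters, in 0 of 5 collagen promoters in the table, in 2 of 16 (12.5%) of the matrix list, and in 29 of 212 (13.7%) of all genes called higher. A match is a run of letters and not a binding site, and the share near the cartilage genes was no larger than the background. Shown are Sox5 (chr6:143947107-143947356, minus strand, core at 154 bases before the start) and Chadl (chr15:81697288-81697537, minus strand, core at 90 bases before the start), each with 1 core, and Matn1 (chr4:130944135-130944384, plus strand), whose window holds none of these letters. Capitals mark the core.
Sox5: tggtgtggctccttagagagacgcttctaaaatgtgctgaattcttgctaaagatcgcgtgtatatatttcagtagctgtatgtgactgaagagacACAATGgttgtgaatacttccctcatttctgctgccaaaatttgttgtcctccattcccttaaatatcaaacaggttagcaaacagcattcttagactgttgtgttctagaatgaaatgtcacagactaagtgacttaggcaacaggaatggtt
Chadl: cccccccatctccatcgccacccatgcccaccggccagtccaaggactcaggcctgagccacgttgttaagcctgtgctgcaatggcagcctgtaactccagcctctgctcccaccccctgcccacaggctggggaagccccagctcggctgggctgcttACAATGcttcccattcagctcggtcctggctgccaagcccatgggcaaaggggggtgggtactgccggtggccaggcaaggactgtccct
Matn1: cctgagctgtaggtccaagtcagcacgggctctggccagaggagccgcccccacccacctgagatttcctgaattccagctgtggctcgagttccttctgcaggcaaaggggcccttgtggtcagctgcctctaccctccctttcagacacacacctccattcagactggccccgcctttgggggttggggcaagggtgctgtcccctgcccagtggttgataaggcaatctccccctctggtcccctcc

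Ihh and Col10a1 were near 0, and the other genes of hypertrophy were below the labelled level or not called. At E15.5 all Matn1-high cells together had 13 UMIs of Ihh, and at E17.5 they had 5. Col10a1 had 9 UMIs at E15.5 and 0 at E17.5. Of 7 genes with enough counts in this list of 12, 5 were lower than in labelled cells and none was higher. These were Mmp13 (ratios 0.262 and 0.172), Alpl (0.0879 and 0.108), Ibsp (0.0325 and 0.0703), Spp1 (0.077 and 0.123) and Sp7 (0.116 and 0.145), all of which are also genes of bone.

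Genes of resting, articular and perichondral cartilage went in several directions. Gdf5, a growth factor of joints and resting cartilage, was the 1 gene called higher of 8 tested and 12 in the list, at 17.8 and 38.7 CPM with ratios of 20.2 and 49.1. Wif1, Tnn and Abi3bp were lower. Prg4, lubricin, had 108 UMIs at E15.5 and 22 at E17.5, at 7.35 and 10 CPM, which was too few at E17.5 to be called.

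Of the growth factor list, 5 of 13 genes tested were higher and 4 lower, and the other 12 genes had too few counts. Fgfr3, the receptor that slows growth of cartilage, was at 176 and 198 CPM with ratios of 28.3 and 18.4. Bmp2 had ratios of 3.87 and 2.51 and Gdf10 of 3.42 and 4.08. Ccn1 and Ccn2, matricellular proteins, had ratios of 2.81 and 6.41 and of 6.25 and 10.4. The lower genes were the hedgehog targets Ptch1 (0.397 and 0.295) and Hhip (0.141 and 0.13), the Wnt modulator Sfrp2 (0.102 and 0.13) and Igf1 (0.139 and 0.265).

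Head patterning factors were mixed, with 3 of 14 genes tested higher and 4 lower, of 28 in the list. Alx1, a homeobox factor needed for the front of the skull, was at 144 and 276 CPM with ratios of 3.3 (3.11 to 3.51) and 4.62 (4.24 to 5.03). After thinning, the E15.5 and E17.5 libraries had it in 36.3% and 57.5% of Matn1-high cells, against 12.3% and 16.5% of labelled cells and 1.82% and 3.3% of myeloid cells. Without thinning it was detected in 73.1% and 90.1% of Matn1-high cells. Foxc1 (3.49 and 3.34) and Foxc2 (2.75 and 3.91) were the other higher genes, and clusters of the meninges held more of both. With the labelled clusters weighted equally, Alx1 stayed above 2-fold (2.89 and 4.23), while Foxc1 (1.77 and 2.34) and Foxc2 (1.17 and 1.69) were no longer called. Dlx5, Prrx2, Twist1 and Twist2 were lower. Hoxa2, Hoxa3 and Hoxb3 had 0 UMIs in the Matn1-high cells of both libraries.

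Over all genes tested, the 15 with the largest smaller ratio of the libraries were Susd5, Ninj2, Scrg1, Hapln1, Ccn6, Chil1, Matn3, Cnmd, Meltf, Comp, Col9a3, Col2a1, Ucma, Fbxo2 and Col9a1. Susd5, outside the lists, was at 193 and 218 CPM against 3.04 and 0.637 CPM in labelled cells (ratios 63.3 and 342). Meltf, melanotransferrin, was at 164 and 138 CPM (53.1 and 336). Ccn6, of the same family as Ccn1, was at 24.9 and 29.2 CPM (60.4 and 337), and Chil1, a chitinase-like protein, at 10.2 and 24.1 CPM (55.2 and 131). None of these 4 genes exceeded 7.64 CPM in any labelled cluster.

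**Figure D3:**
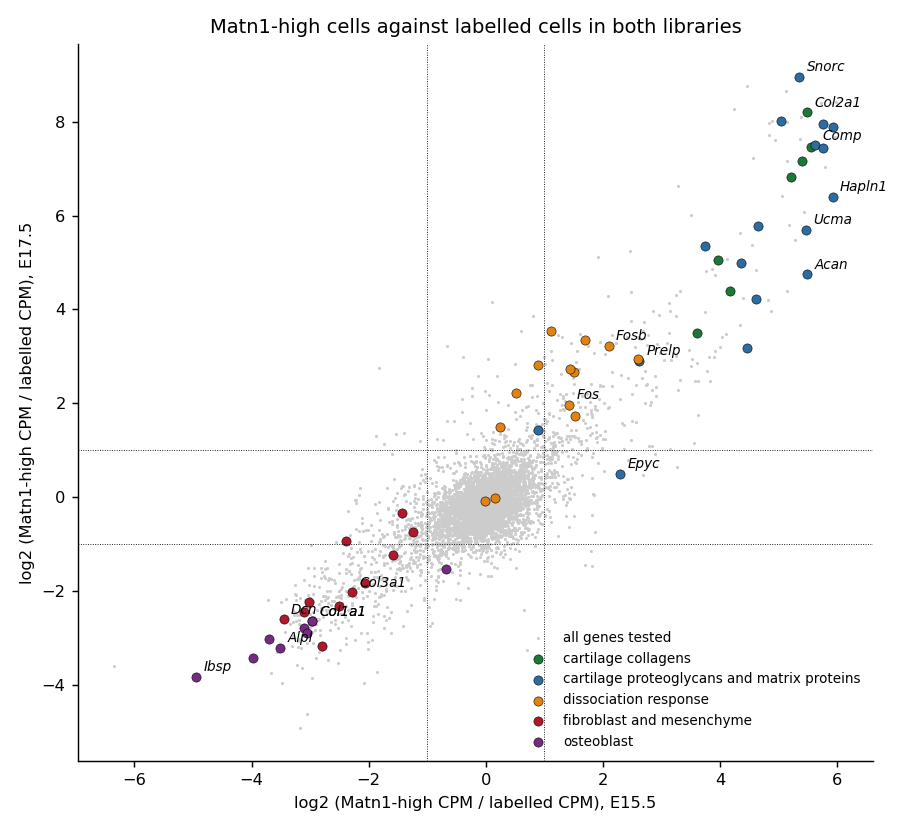
Each gene tested (grey) by log2 of its CPM in Matn1-high cells over that in labelled cells, at E15.5 (x axis) and E17.5 (y axis), with the genes of 5 lists in colour and dotted lines at 2-fold. The cartilage collagens and most matrix proteins lie at the upper right, the osteoblast and fibroblast genes at the lower left, and the medians of all genes were -0.03 at E15.5 and -0.18 at E17.5.

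Genes of the surrounding tissues were lower. Of the fibroblast list, 9 of 12 genes were lower and none higher. Col1a1, the main collagen of bone and skin, was at 826 and 1729 CPM against 6462 and 10829 CPM (ratios 0.128 and 0.16), and Dcn, decorin, was at 467 and 307 CPM (0.0915 and 0.165). At E15.5 most of these UMIs lay in clusters 6, 8 and 9, and without them Dcn was at 109 CPM and Col1a1 at 419 CPM (ratios 0.0214 and 0.0648). Of the osteoblast list, 7 of 8 were lower, and of the tendon list 3 of 4. The 15 genes with the largest fall across both libraries began with Ibsp, Cxcl14, Insc, Rspo1 and Ifitm5, genes that were highest in OG, EC or both kinds of labelled cluster.

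The dissociation response list, genes that cells switch on within minutes of handling, was higher in 8 of 13 genes and lower in none. Fos was at 3736 and 3147 CPM against 1390 and 802 CPM (2.69 and 3.92). Fosb had ratios of 4.28 and 9.34, Junb of 2.82 and 6.39, Zfp36 of 6.02 and 7.68 and Atf3 of 2.16 and 11.6. The list summed to 12174 CPM at E15.5 and 11114 CPM at E17.5, against 5361 and 2869 CPM in labelled cells and 5090 and 7072 CPM in myeloid cells. The myeloid cells of the same libraries lay between the labelled and the Matn1-high cells at E17.5 and below both at E15.5. The part of handling in these levels was not tested.

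Of the hypoxia and glycolysis list, 2 of 12 genes were higher, Hk2 (2.07 and 5.42) and Bnip3 (3.84 and 5.14). Hk2 is an enzyme of glycolysis, but Ldha, Pkm and Gapdh of the same pathway were not called. Ldha was at 1.54 and 0.979 times the labelled level, Pkm at 1.36 and 0.742 and Gapdh at 1.4 and 0.872. The list summed to 4592 and 4095 CPM, against 3150 and 3958 CPM in labelled cells. Genes of S phase and of G2 and M phase had no call of 13 and 14 tested. The G2 and M genes had a median log2 ratio of 0.61 at E15.5 and -0.39 at E17.5.

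Markers of other cells were measured as summed lists. The myeloid list summed to 240 CPM at E15.5 and 305 CPM at E17.5, against 60.5 and 191 CPM in labelled cells and 7230 and 16581 CPM in myeloid cells, and C1qb was called higher (5.15 and 2.04). The mast cell list summed to 233 and 34.6 CPM, against 107 and 31.5 CPM in labelled cells, and the red cell list to 9286 and 560 CPM, the latter against 10854 and 546 CPM in labelled cells. The endothelial list summed to 35.3 and 26.4 CPM and keratinocyte genes to 2.11 and 0 CPM. The glia list stood at 24.1 and 10.5 CPM, against 3.29 and 5.2 CPM in labelled cells. At E15.5, 81.1% of the myeloid UMIs and 72% of the mast cell UMIs sat in cluster 8, which has high doublet scores. Without clusters 6, 8 and 9 the myeloid list summed to 48.9 CPM and the mast cell list to 71.4 CPM, both below the labelled level, and C1qb had a ratio of 0.943 at E15.5 and was no longer called. Outside it, the myeloid list summed to between 38.9 and 58.2 CPM in each E15.5 cluster.

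MG1 and MG2, cells of the periosteal dura, held the most Col2a1, Acan and Sox9 among labelled clusters in most cases, and the Matn1-high cells were set against them directly. In the E15.5 library MG1 has only 28 cells and MG2 350, and in the E17.5 library they have 423 and 473. All 7 collagens were higher than in either cluster, where 5.3% of 5320 genes were higher against MG1 and 6.21% of 5364 against MG2. Of the matrix proteins, 14 of 17 were higher against each. Col2a1 was 11.1 and 103 times MG1 and 23.9 and 180 times MG2. Acan was 9.06 and 7.98 times MG1 and 10.4 and 11.5 times MG2, and Sox9 was 5.16 and 12.3 times MG1 and 4.74 and 10.4 times MG2.

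The dura clusters were not below the Matn1-high cells in every respect. None of 14 head patterning factors was higher in Matn1-high cells than in MG1 or MG2, and 4 and 7 were lower, where 7.2% and 8.52% of genes were lower. Alx1 was 1.57 and 4.73 times MG1 and 1.36 and 2.1 times MG2. Other lists went the other way, where 5.3% of genes were higher against MG1 and 6.21% against MG2. The dissociation list was higher in 11 of 13 genes against MG1 and in 9 of 13 against MG2. Genes of G2 and M phase were higher in 10 of 14 against MG2 and in 0 of 14 against MG1. The correlation of log2 (CPM + 1) with Matn1-high cells was taken across 5396 genes. At E15.5 it was 0.843 for OG3, 0.835 for OG1, 0.829 for OG2, 0.82 for MG2 and 0.796 for MG1. EC1, LIG, PO1 and EC3 lay between MG2 and MG1 there. At E17.5 it was 0.799 for MG2, 0.798 for MG1, 0.789 for OG3, 0.78 for OG1 and 0.761 for OG2. These correlations are across genes of pooled cells from 1 library and describe it, and the order of these clusters differed between the stages.

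Cartilage RNA was also found outside the Matn1-high cells at a low level. Myeloid cells held 101 CPM of Col2a1 at E15.5 and 34.2 CPM at E17.5, where labelled cells held 177 and 36.5 CPM. For every 1000 UMIs of Col2a1, the E15.5 library had 469 UMIs of Matn1 in Matn1-high cells, 337 in labelled and 374 in myeloid cells. The E17.5 library had 314, 214 and 304. In MG1 the E15.5 and E17.5 libraries had 74.5 and 94.2, in MG2 158 and 122, and in MG3 170 and 87.8. The value of MG1 at E15.5 rested on 14 Matn1 UMIs in 28 cells. PO2 had 333 and 111, on 19 and 5 Matn1 UMIs. MG1, MG2 and MG3 thus carried Col2a1 with less Matn1 beside it than myeloid cells or labelled cells as a whole did, and so did the few cells of PO2. The Matn1-high cells were chosen on Matn1, so their own ratio is no result.

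Within the Matn1-high cells of each library, clustering without Matn1 split the E15.5 cells into 9 clusters and the E17.5 cells into 5. They are called by number and by their leading genes, those furthest above the other Matn1-high cells. Cartilage genes ran through all of them: the collagens summed to 18940 to 38302 CPM over the E15.5 clusters, and to 26855 to 43715 CPM over those of E17.5. Shared genes between clusters of the stages are counted among genes 2-fold from the other Matn1-high cells, with no share over all genes beside them. The pairs of clusters and the shared genes named were chosen after their values were seen.

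Cluster 4 at E15.5 (185 cells) and cluster 5 at E17.5 (17 cells) were led by cell cycle genes. Mki67 was at 269 and 272 CPM and Top2a, which untangles replicated DNA, at 635 and 587 CPM. In the other E15.5 clusters with low doublet scores Top2a was at 9.82 to 60.3 CPM. The pair shared 72 higher genes, 19.4% of the 371 at E15.5 and 69.9% of the 103 at E17.5. Collagen and Acan levels in these clusters (8281 and 10956 CPM of Col2a1, 1951 and 1504 CPM of Acan) were not below those of all Matn1-high cells. Suffix 1 held 0 of the 17 cells at E17.5, and 5 of the 17 (29.4%) had a high doublet score, the largest share of the E17.5 clusters.

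Cluster 5 at E15.5 (154 cells) and cluster 1 at E17.5 (55 cells) held less of the aggrecan programme. Acan was at 1054 and 621 CPM, Matn3 at 132 and 33 CPM, Papss2 at 93.3 and 62.6 CPM, Scrg1 at 97.9 and 134 CPM and Fgfr3 at 91 and 104 CPM. Clu, clusterin, which marks the surface of cartilage, was at 85 and 302 CPM, and Prg4 was at 36.4 and 20.9 CPM. Col2a1 changed less, at 7987 and 7826 CPM. Tspan13, Cldn11, Lsr, Tac1 and Tfrc led the cluster at E15.5, and Pthlh, Srgn, Gem, Clu and Csrnp1 led it at E17.5.

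Pthlh, the hormone-like signal of resting chondrocytes, was at 101 CPM in this cluster at E17.5 and at 10.6 CPM in its E15.5 partner. The pair shared 30 higher genes (25.2% of 119 and 34.5% of 87), Clu, Tspan13, Cldn11, Bmp2, Tgfb3, Runx1 and Sox4 among them. They also shared 45 lower genes (19.7% of 229 and 62.5% of 72), among them Matn3, Papss2, Scrg1, Fgfr3 and cell cycle genes. Cluster 1 at E17.5 shared 22, 21 and 21 lower genes with clusters 1, 2 and 7 at E15.5 as well, many of them cell cycle genes. With each other E15.5 cluster it shared at most 12. The dissociation list was highest in these clusters as well, summing to 15463 CPM and 18595 CPM. The part of this response in the pattern was not tested.

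Cluster 2 at E15.5 (180 cells) held the most matrix RNA, with Col2a1 at 11400 CPM, Acan at 2508 CPM, Cnmd at 3220 CPM and Cytl1 at 682 CPM. Its cells were shallow, with a median of 8010 UMIs, and Sgms2, Mustn1, Fam180a and Ibsp were among its leading genes. Ibsp was detected in 27.2% of its cells, a smaller share than the 34.9% of the other Matn1-high cells. Cluster 3 at E15.5 (126 cells) was led by enzymes of sterol synthesis, Mvd, Msmo1, Lss and Nsdhl, together with Ptp4a3. Msmo1 was at 215 CPM there and at 44.7 CPM in the other Matn1-high cells. The pericyte list summed to 222 CPM in this cluster, the highest of the E15.5 clusters, and 161 of the 185 UMIs of Rgs5, a pericyte gene, lay in 11 of its cells. Cluster 1 at E15.5 (261 cells) stood only weakly apart, led by Egr4 at 2.92 times the other cells.

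Cluster 7 at E15.5 (122 cells) and cluster 2 at E17.5 (43 cells) had the lowest dissociation response, at 6249 and 2399 CPM summed. Fos was at 1917 and 794 CPM there. The pair shared 40 lower genes (21.4% of 187 and 67.8% of 59), including Fos, Egr1, Junb, Atf3 and Nr4a1, and 0 higher genes of 1 and 3. Cluster 2 at E17.5 also held the most Col2a1 of its stage, 14001 CPM. Across all clusters the list ran from 6249 to 15463 CPM in the E15.5 library and from 2399 to 18595 CPM in the E17.5 library.

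Clusters 6, 8 and 9 at E15.5 held most of the high doublet scores and carried genes of other cells beside the cartilage genes. In cluster 6 (110 cells) 84.5% of cells had a high doublet score, the median was 17068.5 UMIs, and Dcn was at 2574 CPM and Col1a1 at 3262 CPM. It was led by Cbln2, Dpp4, C1qtnf7, Arhgap20 and Galnt17. In cluster 8 (35 cells, 74.3% with a high score) the myeloid list summed to 4738 CPM and the mast cell list to 4080 CPM, and Mrc1, Tpsg1, C1qa, C5ar1 and Lyve1 led. In cluster 9 (22 cells, 72.7%) Stmn2, Crabp1, Egfl6, Twist2 and Wif1 led. Without these 3 clusters, 283 genes were higher than in labelled cells and 406 lower, and 272 of the 274 and all 379 of the main calls were among them.

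At E17.5, cluster 4 (43 cells) was led by Clec3b, Mfap5, Igfbp5, Igfbp3 and Sfrp2, genes of fibroblasts, and 11.6% of its cells had a high doublet score. It shared 11 of its 20 higher genes (55%) with cluster 6 at E15.5, which is 3.06% of the 360 of that cluster. Cluster 3 (23 cells) was led by Omd, Cdc42ep3, Ly6e, Ogt and Cytl1, with Cytl1 at 1733 CPM. Acan was also low there, at 670 CPM, and Matn3 at 93.8 CPM. Like cluster 1 of this stage, it shared genes with cluster 5 at E15.5. These were 7 of its 12 higher genes (58.3%, and 5.88% of 119), among them Tspan13, Cytl1 and Ly6e. Of its 35 lower genes it shared 14 (40%, and 6.11% of 229), among them Matn3 and Scrg1.

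**Figure D4:**
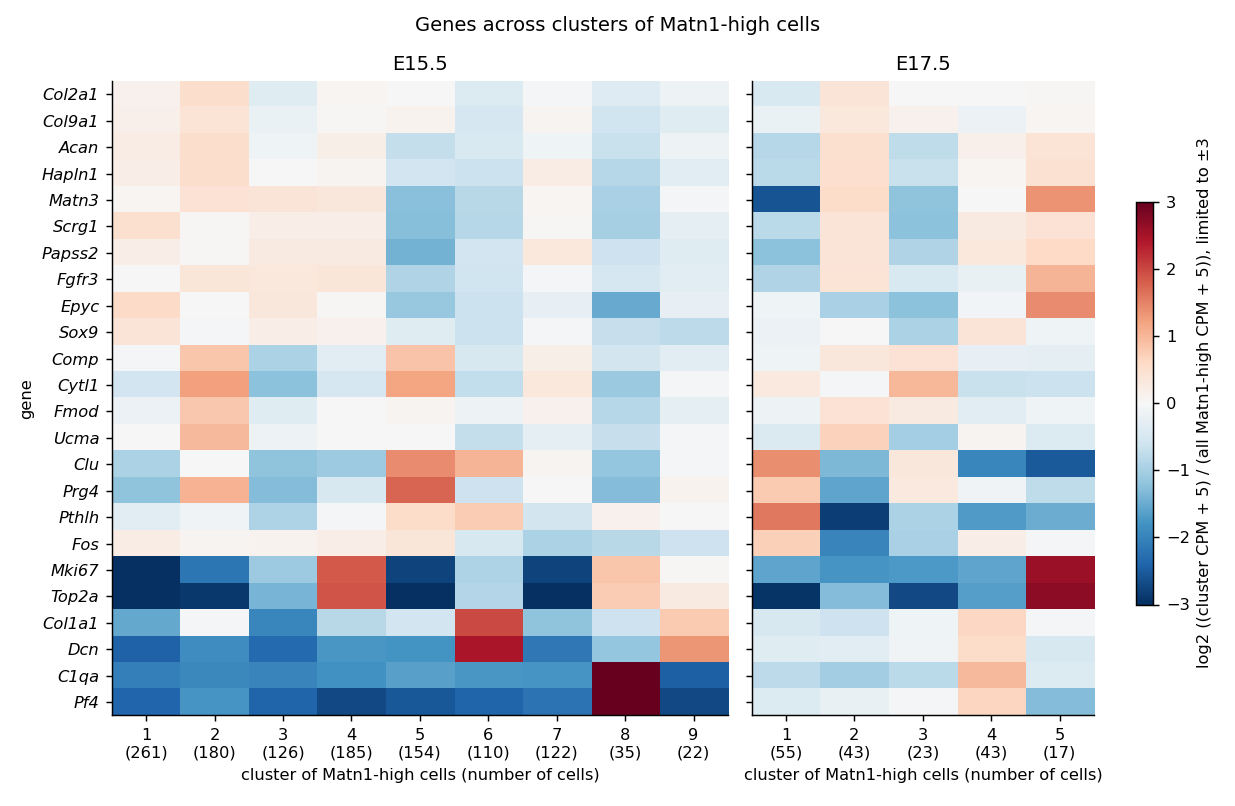
Levels of 24 genes in the clusters of Matn1-high cells, as log2 of cluster CPM plus 5 over that of all Matn1-high cells of the library, for the 9 clusters at E15.5 (left) and the 5 at E17.5 (right), with cell numbers in brackets. Mki67 and Top2a stand out in cluster 4 of E15.5 and cluster 5 of E17.5, Clu and Prg4 are above and Matn3 below in cluster 5 of E15.5 and cluster 1 of E17.5, and Dcn stands out in cluster 6 and C1qa in cluster 8 of E15.5. Colours end at 3 and -3.

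Between the stages, 7839 genes had at least 50 UMIs in the library with the higher level. Of these, 3.07% (241 genes) were at least 2-fold higher in the Matn1-high cells at E17.5 and 13.5% (1058) at least 2-fold lower. The Matn1-high cells held 14687575 UMIs at E15.5 and 2195306 UMIs at E17.5, so a limit of 50 UMIs admits genes of lower CPM when they were higher at E15.5. With the same limit on CPM in both libraries, 22.8 CPM, 240 genes were higher and 431 lower of 5100. In labelled cells, 100 of the 241 and 411 of the 1058 differed 2-fold in the same direction, which is 41.5% and 38.8% of them. The share of all 7839 genes that did so in labelled cells is not given beside these counts. They therefore do not show whether the stages agree beyond that background.

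Among matrix genes, 3 of 18 tested were higher at E17.5 and 1 was lower. Comp rose from 197 to 691 CPM, 3.52-fold (3.3 to 3.74), and stood at 690, 694 and 689 CPM in the 3 suffixes, while labelled cells changed by 0.956. Cytl1, a small secreted protein of cartilage, went from 286 to 863 CPM, 3.02-fold, with 1094, 745 and 928 CPM by suffix, against 0.387 in labelled cells. Fmod went from 101 to 481 CPM, 4.77-fold, but labelled cells rose 3.28-fold too. Epyc fell from 93.8 to 38.3 CPM, a ratio of 0.408, with 12.2, 46 and 36.8 CPM by suffix, against 1.42 in labelled cells.

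After thinning, Comp was detected in 43.6% of Matn1-high cells at E15.5 and in 81.2% at E17.5, with 1.24% and 1.19% in labelled cells and 2.99% and 1.14% in myeloid cells. Without thinning it was detected in 75.7% and 97.2% of Matn1-high cells. Chad and Ucma were close to the limit, at 1.98 and 1.9. Acan went the other way, with a ratio of 0.656 (0.629 to 0.683), and Matn3 had 0.689, while Col2a1 had 1.34 (1.32 to 1.36). No cartilage collagen of 7 changed 2-fold, and their median log2 ratio between the stages was 0.42 in Matn1-high cells and -0.96 in labelled cells.

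**Figure D5:**
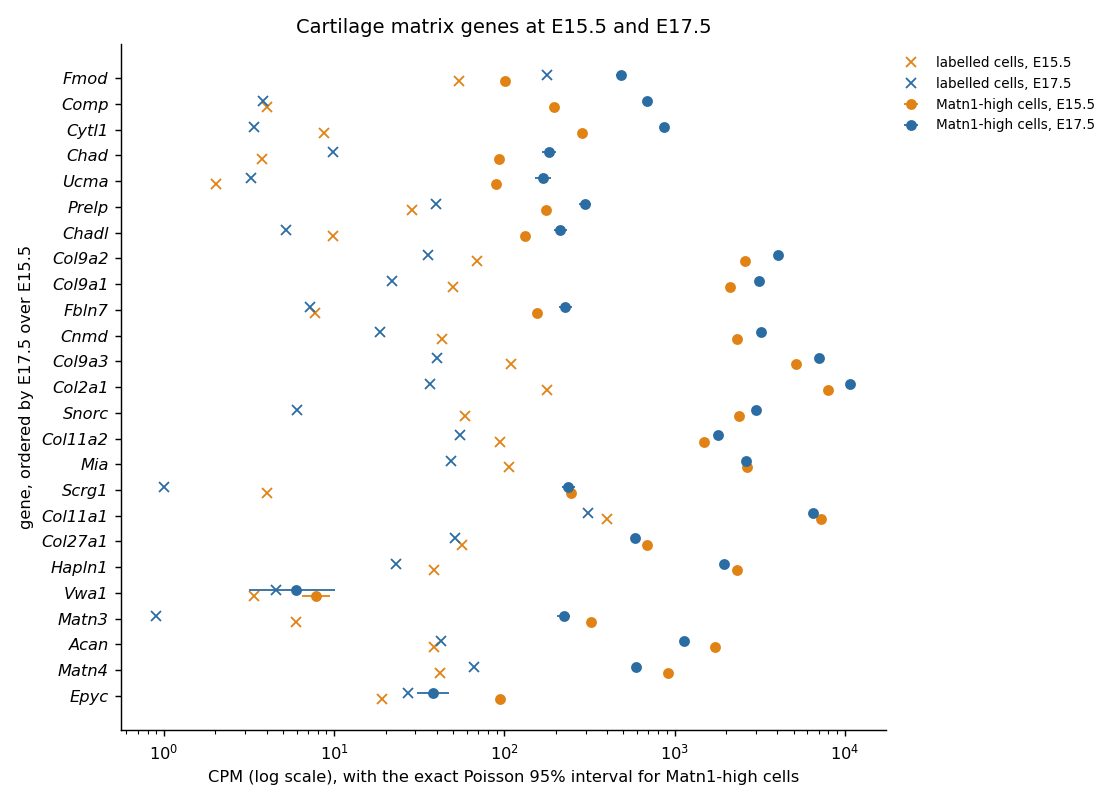
CPM (log scale) of 25 cartilage matrix genes at E15.5 (orange) and E17.5 (blue) in Matn1-high cells (circles, with exact Poisson 95% intervals) and in labelled cells (crosses), ordered by the ratio of the stages in Matn1-high cells. In Fmod, Comp and Cytl1 at the top the E17.5 circle lies furthest to the right of the E15.5 circle, and in Epyc at the bottom it lies furthest to the left of it.

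Genes of resting, articular and perichondral cartilage were higher at E17.5 in 6 of 7 tested, and 5 of these also exceeded the labelled change 2-fold. Clu went from 28.5 to 112 CPM (3.93-fold, against 0.166 in labelled cells), with 102, 59 and 170 CPM by suffix. Ccdc80 went from 78.8 to 269 CPM (3.41-fold, against 0.38), and its suffixes lay at 245, 244 and 301 CPM. The mix of labelled clusters differed between the libraries, and in the labelled cluster EC3 Ccdc80 stood at 482 and 458 CPM. Gdf5 rose 2.17-fold (against 0.891) and Wif1 4.51-fold (against 2.1). Pthlh rose 5.34-fold (3.81 to 7.45) on 84 and 67 UMIs, but its suffixes spread from 9 to 77.6 CPM. Tnn rested on 9 and 96 UMIs, a ratio of 71.4 (36.1 to 161), and labelled cells had a ratio of 46.8.

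The cells of cluster 1 at E17.5, which held most Pthlh and Clu, were 6, 19 and 30 of the 19, 85 and 77 Matn1-high cells of the suffixes. Their part in the rise of these 2 genes was not tested. Genes of G2 and M phase were lower at E17.5 in 4 of 15 (Tpx2, Cenpf, Cenpe and Bub1), with a median log2 ratio of -0.78, against 0.34 in labelled cells. Of dissociation genes, 4 of 14 were lower at E17.5 and 1 higher, with a median of -0.31 against -1.11 in labelled cells.

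Some genes with large changes between the stages changed in the same direction in labelled cells too. Igf2 rose 29.6-fold in Matn1-high cells and 43.9-fold in labelled cells, and Pgk1 fell to 0.0405 and 0.0722 of its E15.5 level. The matrices list different sets of genes, and the sources name different versions of Cell Ranger. For such genes, stage, dissection, enzyme, sorting and the annotation or software behind the counts cannot be told apart.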

How the data were processed

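Single-cell RNA sequencing gave 1 count matrix per stage. Per the labels and file headers, the authors made the deposited UMI counts with Cell Ranger (version 3.1.0 in the E15.5 header, while the methods of the study name an earlier one) on mm10, and checked reads with FastQC 0.11.7 and MultiQC 0.9. Cells were labelled with Seurat 3.2.0, and 15 labels in the deposited table are used here as given. The counts are not normalized.

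Counts were read with Python 3.11.15, scipy 1.17.1 and pandas 2.3.3. Genes were compared over the 27514 genes in both libraries, as summed counts divided by all UMIs of the group, times 1000000 (CPM). Matn1-high cells were clustered with scanpy 1.11.5 and igraph 0.11.9, without Matn1, on 2000 variable genes, 20 components, 15 neighbours and a resolution of 0.5. Leading genes needed 50 UMIs and detection in 20% of the cluster's cells, the latter added after seeing the data. Doublet scores came from Scrublet for each suffix at an expected rate of 0.06. Its own calls (5.05% and 0.468% of cells) were not used, and no cell was removed. Myeloid cells are unlabelled cells with at least 10 UMIs over the myeloid list.

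Intervals are exact Poisson or Clopper-Pearson intervals at 95%. With 1 library per stage no p-value was computed. The ratio and interval code was tested on simulated data. The cells and the 27 gene lists were chosen with earlier results of these data known. Named are genes of the lists, up to 15 genes in each direction against labelled cells, up to 10 between stages and up to 5 leading genes per cluster. At E15.5, 5 labels had no barcode in the matrix used here, and 93 labelled cells lay outside the limits and were kept. A leading gene of a cluster is not reported here.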

Additional observations from a re-analysis of the deposited data

Results flagged for a closer look

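In 9 genes the Matn1-high cells stood on opposite sides of the labelled cells at the 2 stages, each by at least 2-fold. The difference between the stages was not tested, since each stage is 1 library. Below the labelled level at E15.5 and above it at E17.5 were Ccdc80 (ratios 0.274 and 2.46), Clu (0.283 and 6.69), Fam171b (0.457 and 2.29), Ly6e (0.346 and 2.53), Nnat (0.301 and 2.19) and Tmem37 (0.38 and 2.57). The reverse was seen for Tac1 (3.53 and 0.362), Tnfrsf12a (3.47 and 0.455) and Vcl (3.22 and 0.368). Within the suffixes at E17.5, Nnat was above the labelled cells of its suffix in suffix 1 (1.12) and suffix 2 (3.98) and below them in suffix 3 (0.729), and 61 of its 77 UMIs came from suffix 2. The other 8 genes kept their side of the labelled level in every suffix, on as few as 0 UMIs for Tac1 in suffix 1. Genes outside the lists were named here for this pattern after their values were seen.

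Outside the limits, 424 unlabelled barcodes at E15.5 and 4 at E17.5 also held at least 10 Matn1 UMIs. Of the 424, 233 exceeded the mitochondrial limit and 189 a globin limit, and 149 had under 1000 genes. Their median was 3012.5 UMIs, and they held Col2a1 at 8647 CPM, Acan at 1959 CPM and Sox9 at 272 CPM, with Col1a1 at 695 CPM.

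Among labelled cells at E15.5, 30 held at least 10 Matn1 UMIs, 7 of them in EC2 and 5 in OG2, and 0 did at E17.5. Their median was 16963 UMIs, and they held Col2a1 at 4201 CPM and Acan at 839 CPM beside Col1a1 at 7217 CPM and Dcn at 2566 CPM.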

How the results depend on the processing

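No paired analysis was possible because the labels give 1 sample per stage, and the batch behind each E17.5 suffix is not recorded. Set against labelled cells of the same suffix, a choice made after seeing the data, 272 of the 274 higher and 379 of the 379 lower genes kept their direction in every suffix. The share of Matn1-high cells at E15.5 was 15.52% with at least 5 Matn1 UMIs, 13% with at least 20, 13.6% without high doublet scores and 12.8% without clusters 6, 8 and 9. At E17.5 it was 1.4% with at least 20 Matn1 UMIs and 1.24% in suffix 1. The ratio of the shares was 0.108 with at least 20 Matn1 UMIs, 0.0853 with suffix 1 and 0.225 among unlabelled cells. Against labelled cells, 431 genes were higher and 667 lower at 1.5-fold, 126 and 151 at 4-fold, 519 and 813 with a limit of 10 UMIs, and 1079 and 1393 with a limit of 1 UMI, as fewer or more genes pass by construction. With labelled clusters weighted equally, 1 head patterning factor was higher in place of 3. Between stages, suffix 1 alone (19 cells) gave 45 higher and 2421 lower genes, suffix 2 gave 144 higher and suffix 3 139 higher. Dividing by the labelled change gave 397 higher genes, and the same CPM limit gave 431 lower. For the equal weights and the division, the cause was not tested. The other 133 values of the main comparisons stayed within their limits. A reversal was looked for only in the ratios of single genes. Of these, 158 moved out of their limits and 298 did not, and no gene past 2-fold changed its direction. The alternatives without clusters 6, 8 and 9 and with the same CPM limit were chosen after seeing the data. With at least 20 Matn1 UMIs, 226 of the 274 higher and 293 of the 379 lower genes were shared with the main calls. Clusters numbered 7 to 12 at E15.5 and 4 to 7 at E17.5 over resolutions of 0.3 to 1.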
